A study of Arabidopsis thaliana with 6 samples.

Results

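The 6 RNA-seq libraries of a seedling experiment carry one of 2 dates in their labels, and the pair with the later date was set against the 4 with the earlier one. The later pair holds 1 DEX library and 1 MOCK library, both replicate 3 and both read from lane 7. The earlier libraries are replicates 1 and 2 of DEX and of MOCK, all read from lane 1. They are called the second run and the first run here, although the labels do not say whether the date marks the sequencing, the library preparation or the harvest. Date, lane, depth and whatever else differed between the 2 occasions cannot be told apart, so the contrast is one between batches and not between treatments.

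All 6 libraries came from Arabidopsis thaliana carrying the 35S:GR-TCP5 transgene, a fusion of the glucocorticoid receptor with the transcription factor TCP5 driven by the constitutive 35S promoter. The plants were seedlings 12 days old, grown at 22 °C in 14 h of light and 10 h of dark, and treated for 4 h. DEX solution held dexamethasone, labelled as 10 mM (a dose whose unit is in doubt), with 0.1% ethanol and 0.015% silwet-L77, while MOCK solution held the ethanol and silwet-L77 alone. The labels name no control without the transgene, give neither the organ collected nor the hour of harvest, and do not say whether replicates were separate cultures. The p-values therefore measure the spread between these libraries, which may be technical.

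A seedling is a mixture of organs, and the transcripts of each organ enter its RNA in proportion to the tissue sampled. Root hairs, the endodermis with its Casparian strip and suberin, and the root cap each express gene sets that leaves use little or not at all, whereas chlorophyll synthesis, stomata and trichomes belong to the shoot. Many other transcripts swing with the circadian clock, in which CCA1 and LHY peak around dawn and repress genes such as TOC1, ELF4 and LUX that peak towards evening.

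The second-run libraries were the shallower ones, with 35098276 exon counts with DEX and 33428836 with MOCK, against 58720568 to 76859163 in the first run. Introns took 2.07% to 2.08% of counts in the second run and 2.47% to 2.57% in the first. More loci reached 1 CPM (a count scaled to a common library total with TMM, as everywhere below) in the second run, 19614 and 19961, than in the first, 18838 to 19037. Loci beside ribosomal RNA genes took 0.188% and 0.222% of counts in the second run and 0.130% to 5.84% in the first. The first principal component of log2 CPM held 83.0% of the variance and separated the runs, and the second held 6.76% and separated DEX from MOCK. The part of depth, intron share and ribosomal reads in the results below was not tested.

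Of 23181 genes tested with run and treatment as terms, 13190 differed between the runs at an edgeR quasi-likelihood adjusted p under 0.05, which is 56.9%. The second run was higher for 6813 of them (29.4%) and lower for 6377 (27.5%), so any list of genes is read below against those shares. Large differences were mostly in one direction. At least 2-fold, 3864 genes were higher (16.7%) and 1799 lower (7.76%). At least 32-fold, 818 were higher and 56 lower. These counts include 1240 genes that passed the low-count filter on second-run levels alone and 388 that passed on first-run levels alone. A set of 535 tested genes was picked for averaging under 0.1 CPM in the first run and at least 1 CPM in the second. Their sums were 4072 CPM with DEX and 8678 CPM with MOCK in the second run, against 10.5 to 18.6 CPM per first-run library. The reverse set held 21 genes. Its sums were 0.910 CPM with DEX and 1.01 CPM with MOCK in the second run, against 36.6 to 88.4 CPM per first-run library. Both contrasts of sums follow from the way the genes were picked.

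Lists of tissue, organ and growth-state genes were compared between the runs, and the root lists moved furthest. The 5 root lists hold 77 genes, of which 40 passed the low-count filter on their first-run levels as well. Of these 40, 33 were higher in the second run and none was lower, with a median log2 fold change of 2.93. A further 30 passed the filter only through their second-run levels, so that they had to be higher, and 7 could not be tested. Summed over all 77 members, the level was 2272 CPM with DEX and 5122 CPM with MOCK in the second run, against 538, 479, 823 and 962 CPM in first-run DEX replicates 1 and 2 and MOCK replicates 1 and 2. No first-run library reached the lower of the second-run sums. The labels call every sample a seedling, and 4 of the 77 genes with DEX and 2 with MOCK had no read in the second run, against 28, 35, 27 and 24 in first-run DEX replicates 1 and 2 and MOCK replicates 1 and 2. Whether roots were collected in the same measure on both occasions was not tested. In bulk samples such as these, fewer cells of a type and less RNA per cell cannot be told apart.

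**Figure D1:**
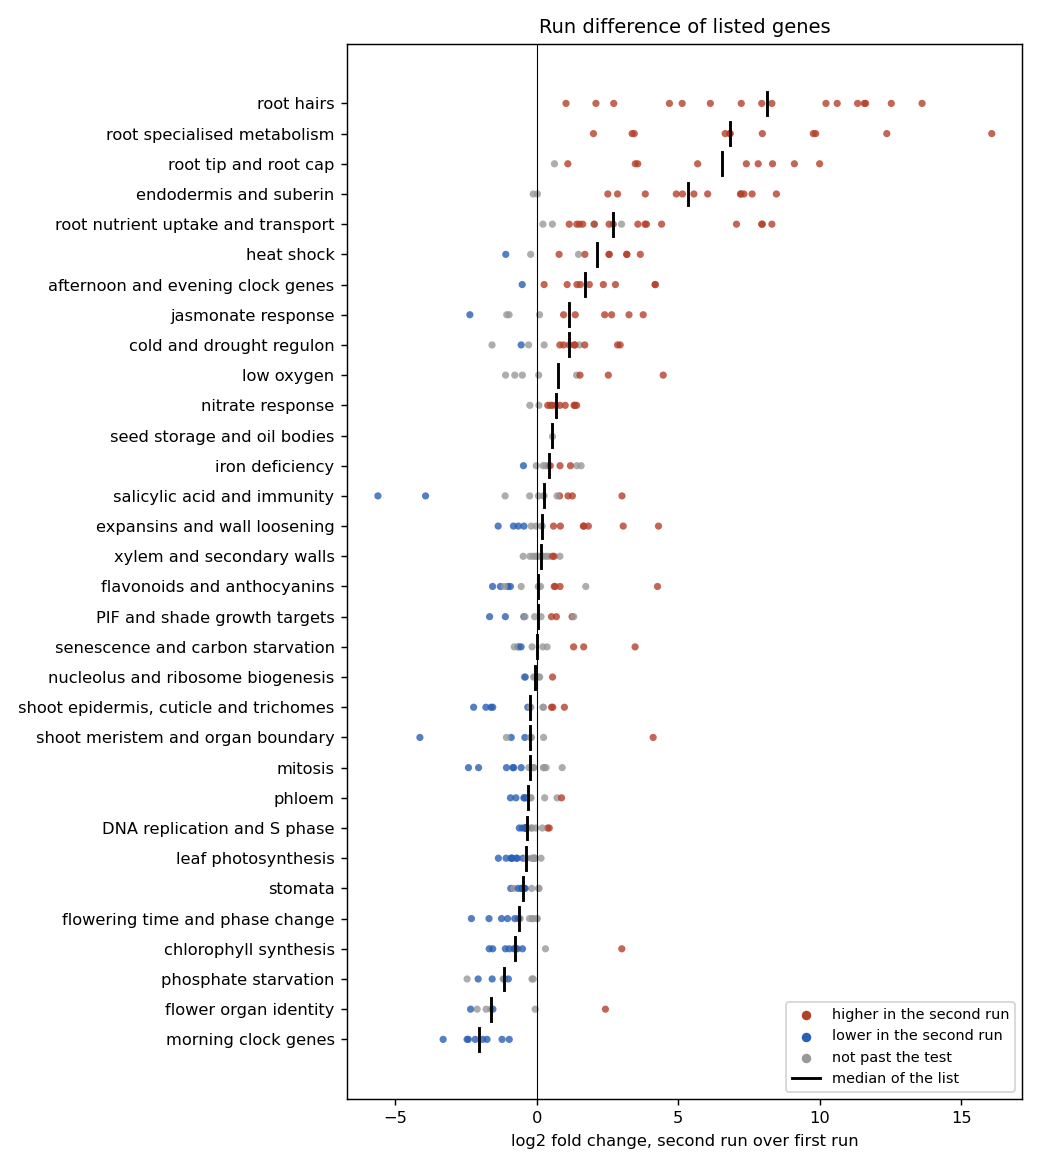
Each point is 1 tested gene, its place on the x axis the log2 fold change of the second run over the first, and each row is 1 list with its median as a black bar. Red points were higher and blue points lower in the second run at adjusted p under 0.05, and the 5 root lists fill the top rows, from a median of 8.13 for root hairs to 2.70 for root nutrient uptake and transport. These medians include members that passed the low-count filter on second-run levels alone, and without them the same lists stand at 3.71 and 2.30.

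Of 16 root hair genes, 6 passed the filter on first-run levels too, and all 6 were higher in the second run, with a median log2 fold change of 3.71. The other 10 passed on second-run levels alone, and over all 16 the median was 8.13, or 7.55 with genes at 0 in the first run set to their lower bound. Values are given for the second run as DEX then MOCK, and for the first run as DEX replicates 1 and 2 then MOCK replicates 1 and 2. XTH14, a xyloglucan endotransglucosylase of roots, lay at 19.4 and 34.8 CPM in the second run, against 0, 0, 0 and 0 CPM in the first. That makes it at least 2471-fold higher against a floor of 3 counts over the 4 first-run libraries. EXPA7, a root hair expansin, stood at 3.88 and 7.31 CPM in the second run and had no read in the first, at least 510.0-fold higher, and it overlaps AT1G12570. Both genes passed the filter on second-run levels alone, so they had to be higher there. PRP3, a proline-rich wall protein of root hairs, had 20.6 and 37.5 CPM in the second run, against 0, 0, 0 and 0.0263 CPM in the first. Its first-run reads were 2 in all, which puts the ratio at 3929 with a 95% exact interval of 1086 to 32470 for counting error alone. PRP3 too passed the filter on second-run levels alone, so it had to be higher there. Counts of 1 to 20 were odd in 16.6% to 19.2% of cases in the second run and 23.2% to 25.8% in the first, so counts are not independent fragments. Intervals and bounds against 3 counts, here and below, would be wider and lower if several counts came from 1 fragment.

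Genes that start root hair growth went with the wall genes. RSL4, the bHLH factor that sets hair length, stood at 1.498 and 3.64 CPM in the second run and at 0 in all 4 first-run libraries, at least 234-fold higher. RBOHC, the NADPH oxidase of hair tip growth, lay at 45.4 and 29.1 CPM in the second run, against 0.789, 1.18, 2.22 and 1.82 CPM in the first, a log2 fold change of 4.69 ± 0.40 (adjusted p = 0.000385). The smallest difference in the list was that of CSLD3, a cellulose synthase-like protein of hair walls that shoots also express, at 61.1 and 68.0 CPM in the second run, against 31.1, 28.2, 32.3 and 34.4 CPM in the first. Of these 3 genes, RSL4 passed the filter on second-run levels alone, and neither RBOHC nor CSLD3 overlapped between the runs, as was true of 65.9% of all tested genes in one direction or the other.

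Among endodermis and suberin genes, 8 of 15 passed the filter on first-run levels, and 6 of those were higher in the second run and none lower, with a median log2 fold change of 3.35. Another 6 passed on second-run levels alone. CASP1, a membrane protein that lays down the Casparian strip, stood at 11.6 and 30.0 CPM in the second run, against 0, 0, 0.110 and 0.526 CPM in the first. PER64, a peroxidase that makes Casparian strip lignin, lay at 6.58 and 24.9 CPM in the second run, against 0.0687, 0.0302, 0.576 and 0.395 CPM in the first, a log2 fold change of 6.04 ± 0.29 (adjusted p = 2.58e-06). CYP86A1, the fatty acid hydroxylase of root suberin, had 20.4 and 45.5 CPM in the second run, against 0.103, 0, 0.0274 and 0.237 CPM in the first. In each case DEX was below MOCK within the second run and both exceeded every first-run library. The runs did not overlap for 65.9% of all tested genes, in one direction or the other. CASP1 and CYP86A1 passed the filter on second-run levels alone, so they had to be higher there. The 2 members that did not pass were the patterning factors SHR and SCR, which leaves also express. SCR stood at 23.8 and 26.8 CPM in the second run and 27.3, 27.2, 29.4 and 26.4 CPM in the first (log2 fold change −0.13 ± 0.10, adjusted p = 0.294). CASP1 and PER64 overlap other loci of the count files. The library kit does not mark strand, so reads of such overlapping pairs cannot be told apart, here and wherever an overlap is named below.

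Of 12 root tip and root cap genes, 4 passed the filter on first-run levels, and 3 of those were higher in the second run and none lower. Another 6 passed on second-run levels alone. PLT1, an AP2 factor that maintains the root stem cells, stood at 1.23 and 3.16 CPM in the second run and 0 in all 4 first-run libraries, at least 201-fold higher. PLT2, its close relative, lay at 0.940 and 1.46 CPM in the second run and also 0 throughout the first, at least 109-fold higher. SMB, a NAC factor that matures root cap cells, had 0.529 and 1.27 CPM in the second run, against 0.0343, 0, 0.0274 and 0 CPM in the first. All of these levels are low, and 7 of the 12 members had no read in any first-run library. PLT1, PLT2 and SMB passed the filter on second-run levels alone, so they had to be higher there. PLT3, which also acts in shoot meristems, stood at 6.02 and 7.15 CPM in the second run, against 3.30, 3.11, 3.02 and 2.87 CPM in the first, the smallest difference among those that passed. WOX5, the homeobox gene of the quiescent centre, did not pass at 0.176 and 0.506 CPM in the second run and 0.103, 0.0905, 0.466 and 0.263 CPM in the first.

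**Figure D2:**
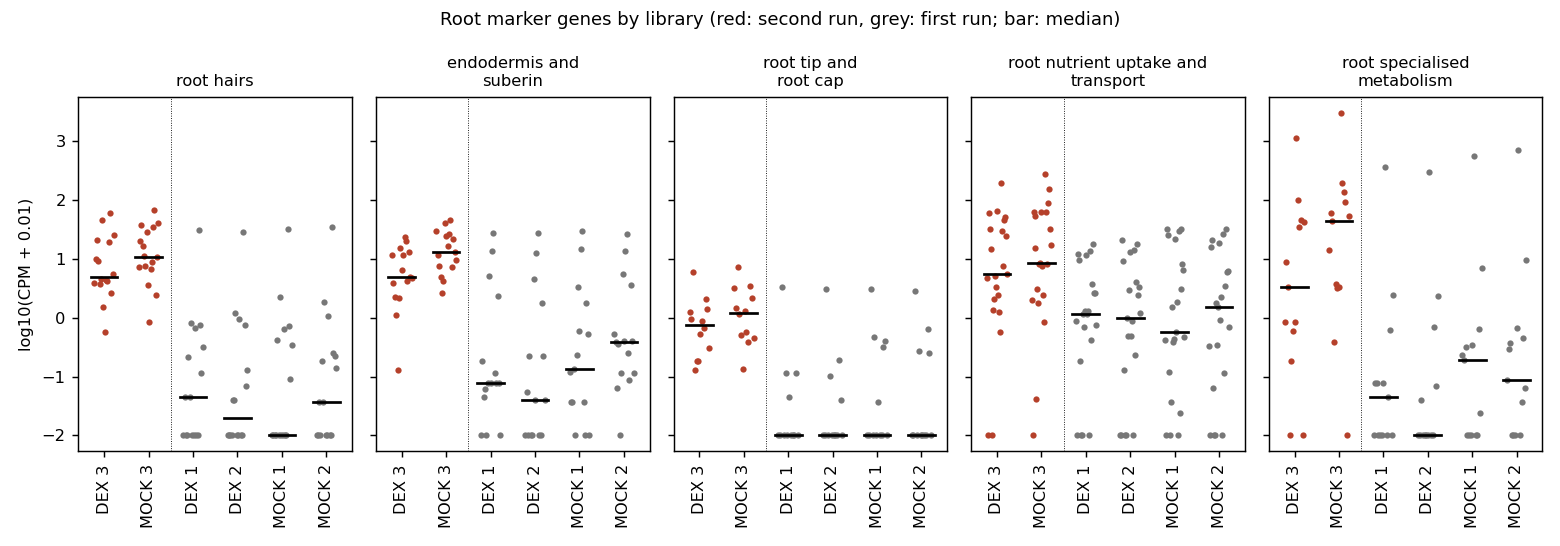
Levels of the 77 members of the 5 root lists in each library, as log10(CPM + 0.01), so that genes with no read line up at the bottom; second-run libraries (DEX 3, MOCK 3) are red, first-run libraries grey, and bars are medians. Of the 77 members, 58 and 66 reached 1 CPM in the second-run DEX and MOCK libraries, against 19 to 21 in the 4 first-run libraries.

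Genes for taking up and moving nutrients through the root were higher in 12 of the 16 that passed the filter on first-run levels and lower in none, with a median log2 fold change of 2.30. Another 3 of the 21 listed passed on second-run levels alone. SULTR1;2, the main sulfate importer of the root surface, lay at 197 and 273 CPM in the second run, against 13.5, 14.1, 29.4 and 26.1 CPM in the first, a log2 fold change of 3.57 ± 0.13 (adjusted p = 8e-07). NPF7.3, which loads nitrate into the xylem, had 52.3 and 153 CPM in the second run, against 2.66, 2.43, 8.02 and 5.92 CPM in the first, a log2 fold change of 4.41 ± 0.13, and overlaps AT1G32440. PHT1;1, a phosphate importer, stood at 30.0 and 63.1 CPM in the second run, against 0.412, 0.226, 0.0137 and 0.105 CPM in the first. PHO1, which exports phosphate into the xylem, stood at 46.4 and 89.2 CPM in the second run, against 17.99, 18.17, 32.4 and 32.1 CPM in the first (log2 fold change 1.42 ± 0.08). FRO2, the ferric reductase, did not pass, at 2.06 and 1.77 CPM in the second run and 1.13, 0.965, 1.51 and 1.78 CPM in the first.

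The root specialised metabolism list held the highest levels among the root lists. BGLU23, the abundant beta-glucosidase of endoplasmic reticulum bodies, lay at 1115 and 3051 CPM in the second run, against 366, 302, 558 and 719 CPM in the first, a log2 fold change of 2.005 ± 0.17. It overlaps AT3G09250. BGLU21, a related enzyme of roots, stood at 99.3 and 198 CPM in the second run and at 0 in every first-run library, at least 13560.0-fold higher. BGLU21 passed the filter on second-run levels alone, so it had to be higher there. F6'H1, which makes the coumarin precursor of scopoletin, had 46.5 and 92.4 CPM in the second run, against 0.618, 0.678, 0.631 and 0.447 CPM in the first. All 6 members that passed the filter on first-run levels were higher in the second run, 5 passed on second-run levels alone, and the 2 untested ones were near 0 in every library. How the authors' counting divides reads among the related BGLU genes is not given in the sources used here.

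The thalianol gene cluster, which makes a triterpene of roots, also differed strongly between the treatments of the second run. Its synthase THAS1 lay at 0.822 and 13.9 CPM, CYP708A2 at 8.75 and 59.3 CPM and CYP705A5 at 3.35 and 43.6 CPM, with DEX before MOCK in each pair. None of the 3 exceeded 0.368 CPM in any first-run library. In the first run CYP705A5 stood at 0.0687 and 0.0302 CPM with DEX and 0.302 and 0.368 CPM with MOCK. CYP708A2 stood there at 0.0687 and 0 CPM with DEX and 0.178 and 0.289 CPM with MOCK. Across the 5 root lists, 67 of 77 members were lower with DEX than with MOCK in the second run. The share over all tested genes was not computed, so that count has no background beside it. The summed level with DEX relative to that with MOCK was 0.726 for root hairs, 0.472 for endodermis and suberin and 0.369 for specialised metabolism. It was 0.664 for root tip and root cap, 0.644 for nutrient uptake and transport, and 0.974 over all tested genes. With 1 library of each treatment in the second run, the size of the difference there has no replicate check. Summed over the 77 members, first-run levels were also lower with DEX, at 538 and 479 CPM, than with MOCK, at 823 and 962 CPM. The treatment difference was not tested here.

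Vascular genes did not follow the root lists. Of 14 tested xylem and secondary wall genes, 2 were higher in the second run, none was lower, and the median log2 fold change was 0.16. The count was 0 higher when either second-run library was left out and 1 with no treatment term. CESA4, a cellulose synthase of secondary walls, stood at 20.4 and 19.7 CPM in the second run and 23.0, 17.8, 19.6 and 22.2 CPM in the first (log2 fold change −0.04 ± 0.13, adjusted p = 0.793). XCP1, a protease of dying xylem cells, was higher, at 23.8 and 31.0 CPM in the second run, against 18.5, 12.7, 17.61 and 23.0 CPM in the first. Among 10 phloem genes, 5 were lower and 1 was higher in the second run. SWEET11, which exports sucrose for phloem loading in leaves, stood at 97.3 and 94.7 CPM in the second run, against 157, 151, 153 and 179 CPM in the first, a log2 fold change of −0.73 ± 0.11 (adjusted p = 0.000642). Without second-run MOCK replicate 3, 2 phloem genes were lower and 2 higher.

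Shoot genes moved the other way and by less. Chlorophyll synthesis was lower in the second run for 8 of 10 genes, where 27.5% of all tested genes were lower, with a median log2 fold change of −0.78 against −0.03 over all tested genes. GUN5, the H subunit of magnesium chelatase at the start of the chlorophyll branch, lay at 641 and 813 CPM in the second run, against 2165, 1843, 2213 and 2281 CPM in the first, a log2 fold change of −1.56 ± 0.14 (adjusted p = 4.31e-05). CAO, which turns chlorophyll a into b, had 54.8 and 74.0 CPM in the second run, against 255, 188, 181 and 200.2 CPM in the first. The single member that was higher was PORA, the protochlorophyllide reductase of dark-grown seedlings, at 3.73 and 3.86 CPM in the second run, against 0.789, 0.362, 0.315 and 0.460 CPM in the first. None of these 3 genes overlapped between the runs, as was true of 65.9% of all tested genes, and CAO overlaps the locus AT1G44414. Without second-run DEX replicate 3, 5 of the 10 were lower.

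Genes of the photosynthetic apparatus differed less. Of 17 tested, 9 were lower in the second run and none was higher, with a median log2 fold change of −0.37. RCA, rubisco activase, stood at 3716 and 4533 CPM in the second run, against 7436, 6704, 8311 and 8477 CPM in the first, a log2 fold change of −0.91 ± 0.13. GLK2, a factor that turns on chloroplast genes, had 39.6 and 69.1 CPM in the second run, against 120.1, 94.6, 157 and 177 CPM in the first, a log2 fold change of −1.35 ± 0.13 (adjusted p = 7.09e-05). RBCS1A, the main small subunit of rubisco, did not pass, at 8513 and 8719.8 CPM in the second run and 9789, 9793, 9116 and 10509 CPM in the first. Without second-run DEX replicate 3, 4 of the 17 were lower.

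Stomatal genes were lower in 8 of 12, all by less than 2-fold, with a median log2 fold change of −0.49. FAMA, the bHLH factor that completes guard cell fate, lay at 14.2 and 16.7 CPM in the second run, against 18.6, 18.6, 25.1 and 29.7 CPM in the first (log2 fold change −0.55 ± 0.12, adjusted p = 0.00519). SPCH, which starts the stomatal lineage, did not pass, at 8.43 and 9.56 CPM in the second run and 9.97, 8.41, 11.0 and 11.4 CPM in the first. The count depended on the libraries: 2 stomatal genes were lower when either second-run library was left out, 4 without first-run MOCK replicate 2, and 5 with no treatment term.

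In the shoot epidermis list, which holds trichome and wax genes, 5 of 12 were lower and 3 higher in the second run. Without second-run MOCK replicate 3 there were 3 lower and 3 higher, and without first-run DEX replicate 1 there were 5 lower and 5 higher. GL1, the MYB factor that starts trichomes, stood at 0.176 and 0.633 CPM in the second run, against 1.49, 1.49, 2.14 and 1.999 CPM in the first. NOK, a MYB factor that limits trichome branching, had 2.91 and 3.32 CPM in the second run, against 12.0, 10.8, 9.61 and 10.9 CPM in the first, a log2 fold change of −1.80 ± 0.16 (adjusted p = 4.15e-05). CER1, which makes alkanes of leaf wax, was also lower, at 15.4 and 16.05 CPM in the second run, against 50.5, 41.8, 52.1 and 48.2 CPM in the first. Its partner in that reaction, CER3, went the other way, at 117 and 159 CPM in the second run, against 71.4, 55.2, 74.4 and 77.5 CPM in the first, a log2 fold change of 0.98 ± 0.12. The general epidermis factor ATML1 was higher as well, with a log2 fold change of 0.57 ± 0.10.

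**Figure D3:**
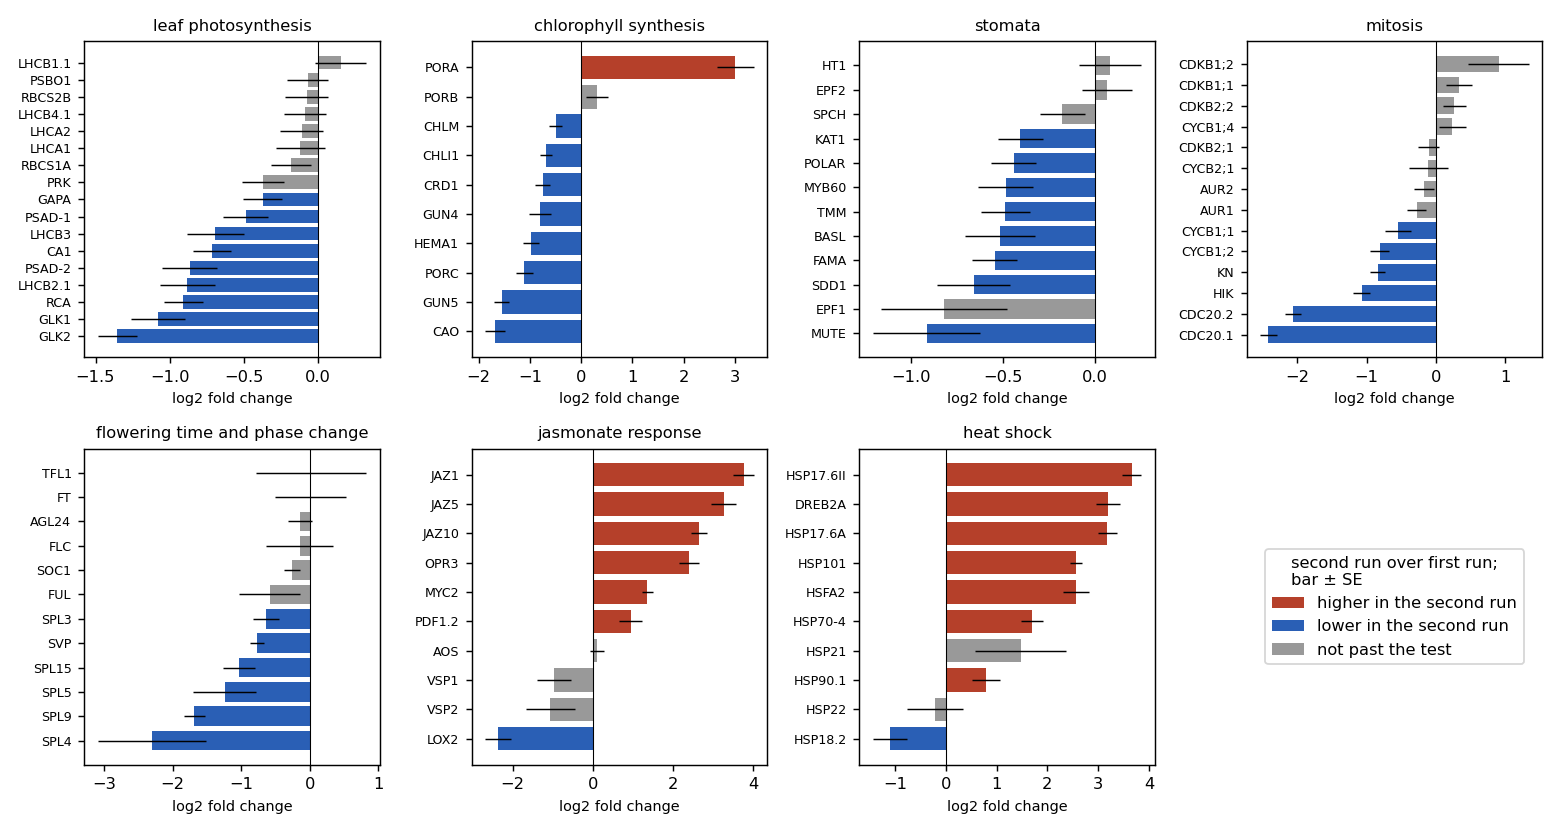
Bars give the log2 fold change of the second run over the first for the tested genes of 7 lists, and lines on them give ± 1 SE; red bars were higher and blue bars lower in the second run at adjusted p under 0.05, grey bars did not pass. Chlorophyll, photosynthesis, stomata, mitosis and flowering genes sit mostly left of 0, jasmonate and heat shock genes mostly right of it.

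Meristem and boundary genes were lower in 33.3% of tested members and flower organ genes in 28.6%, near the 27.5% of all tested genes. Flowering time and phase change genes were lower in 50%. STM, the homeobox gene that keeps the shoot meristem, lay at 4.70 and 4.37 CPM in the second run, against 8.99, 8.97, 6.97 and 8.96 CPM in the first, a log2 fold change of −0.90 ± 0.16 (adjusted p = 0.00144). LAS, a GRAS factor of leaf axils where side meristems form, was higher, at 1.64 and 4.30 CPM in the second run, against 0.0687, 0.151, 0.219 and 0.210 CPM in the first. In all, 3 of 9 tested meristem and boundary genes were lower in the second run and 1 was higher, or 2 higher without first-run DEX replicate 1. Among genes of phase change, SPL9, which promotes the adult leaf phase, had 2.94 and 3.04 CPM in the second run, against 8.29, 8.04, 11.2 and 11.5 CPM in the first, a log2 fold change of −1.68 ± 0.16 (adjusted p = 5.73e-05). SPL3, SPL4, SPL5 and SPL15 were also lower, as was SVP, a repressor of flowering. FT, the mobile flowering signal, did not pass at 0.587 and 0.696 CPM in the second run and 0.618, 0.256, 0.631 and 1.22 CPM in the first, and the list as a whole had 6 of 12 lower and none higher, or 3 lower without second-run MOCK replicate 3. SEP3, a MADS-box gene of flowers, stood at 4.38 and 3.58 CPM in the second run, against 16.5, 16.4, 22.8 and 27.2 CPM in the first, and 2 of 7 tested flower organ genes were lower and 1 higher. Of the flower organ genes 1 was lower when any of the 3 MOCK libraries was left out.

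Among growth genes, the largest falls in mitosis were those of the CDC20 pair. CDC20.1, an activator of the anaphase-promoting complex, lay at 15.4 and 14.2 CPM in the second run, against 83.1, 81.0, 82.9 and 68.0 CPM in the first, a log2 fold change of −2.41 ± 0.12 (adjusted p = 2.38e-06). CDC20.2, the neighbouring copy of the gene, stood at 13.1 and 11.8 CPM in the second run, against 51.5, 52.8, 55.7 and 46.9 CPM in the first. How reads were divided between the pair is not given in the sources used here. Neither gene overlapped between the runs, as was true of 65.9% of all tested genes. HIK, a kinesin of the cell plate, and KN, the syntaxin of cytokinesis, were lower by smaller amounts, with log2 fold changes of −1.07 ± 0.12 and −0.84 ± 0.10. The kinases CDKB1;1 and CDKB2;1 did not pass, at log2 fold changes of 0.33 ± 0.19 and −0.11 ± 0.15. Of the 14 mitosis genes, 6 were lower in the second run and none was higher.

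In the S phase list 8 of 14 genes were lower and 2 higher, all by less than 2-fold. RNR1, the large subunit of ribonucleotide reductase, lay at 73.2 and 44.6 CPM in the second run, against 94.2, 98.1, 68.0 and 70.6 CPM in the first, and within each run it was higher with DEX than with MOCK. PCNA1, the replication clamp, was slightly higher, with a log2 fold change of 0.39 ± 0.09. Without second-run MOCK replicate 3, or with no treatment term, 1 S phase gene was lower, and 5 were without first-run MOCK replicate 1. None was higher without second-run MOCK replicate 3 or with library totals unscaled, and 1 was higher without second-run DEX replicate 3 or first-run MOCK replicate 1. Among 7 nucleolus and ribosome biogenesis genes, 1 was higher and 1 lower, counts that changed when any 1 library was left out. NUC1, the nucleolin of ribosomal RNA synthesis, stood at 927 and 773 CPM in the second run and 713, 866, 786 and 789 CPM in the first.

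Wall-loosening genes moved in both directions, 7 of 15 being higher in the second run and 4 lower. XTH22, known as a touch-induced gene, stood at 600.2 and 619 CPM in the second run, against 70.7, 77.1, 73.5 and 71.9 CPM in the first, a log2 fold change of 3.06 ± 0.10 (adjusted p = 4.57e-07). XTH4, a xyloglucan endotransglucosylase, lay at 252 and 432 CPM in the second run, against 91.9, 70.2, 142 and 127 CPM in the first. EXPA8, an expansin, was lower, at 7.49 and 8.83 CPM in the second run, against 23.5, 17.5, 16.7 and 26.0 CPM in the first. The first-run libraries agreed closely on XTH22, within 70.7 to 77.1 CPM.

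Clock genes divided by their time of day. All 8 morning genes were lower in the second run and 9 of 10 afternoon and evening genes were higher, with median log2 fold changes of −2.04 and 1.70. LHY, the dawn repressor, stood at 3.26 and 2.60 CPM in the second run, against 31.0, 27.1, 27.9 and 29.7 CPM in the first, a log2 fold change of −3.31 ± 0.14 (adjusted p = 1.4e-06). CCA1, its partner, had 14.0 and 15.3 CPM in the second run, against 50.2, 44.8, 65.5 and 62.0 CPM in the first. RVE8, a relative of both that activates evening genes, had 4.61 and 4.43 CPM in the second run, against 22.0, 22.3, 27.97 and 28.2 CPM in the first. No morning gene overlapped between the runs, as was true of 65.9% of all tested genes in one direction or the other.

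The evening complex moved the other way. ELF4, a member of that complex, lay at 28.5 and 35.6 CPM in the second run, against 1.78, 1.69, 1.59 and 1.92 CPM in the first, a log2 fold change of 4.19 ± 0.13 (adjusted p = 4.53e-07). LUX, its DNA-binding member, had 136 and 139 CPM in the second run, against 25.7, 25.1, 29.4 and 27.7 CPM in the first, a log2 fold change of 2.36 ± 0.08. ELF3, the scaffold that joins them, differed little, at 37.9 and 34.3 CPM in the second run and 30.5, 32.2, 27.2 and 30.4 CPM in the first (log2 fold change 0.26 ± 0.09, adjusted p = 0.0387). FKF1, a blue-light receptor of late afternoon, stood at 37.7 and 37.8 CPM in the second run, against 3.31, 1.88, 1.78 and 1.58 CPM in the first. TOC1, an evening repressor, had 112 and 111 CPM in the second run, against 44.7, 44.0, 34.6 and 32.1 CPM in the first, and GI, a protein of late afternoon, had a log2 fold change of 1.42 ± 0.12. CDF1, a repressor of flowering that FKF1 removes, was the 1 member of that list lower in the second run, with a log2 fold change of −0.51 ± 0.16, a call lost without either second-run library or without first-run MOCK replicate 2. Leaving out any single library left all 8 morning genes lower and 8 or 9 evening genes higher.

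**Figure D4:**
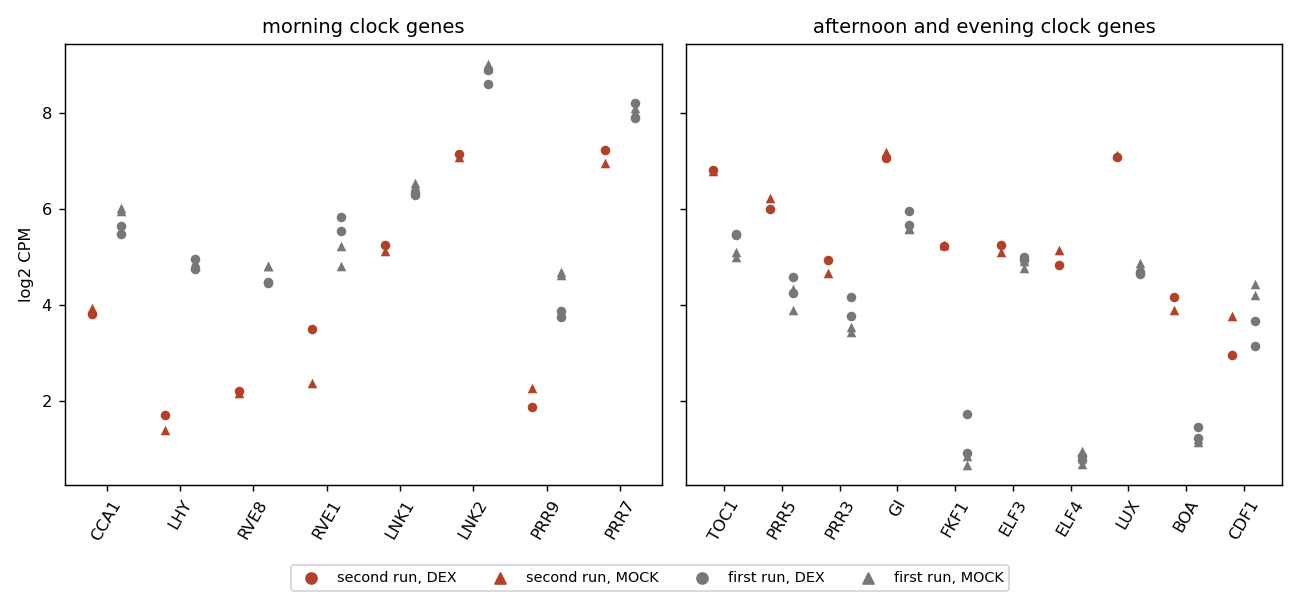
Log2 CPM of the 8 morning and the 10 afternoon and evening clock genes, with second-run libraries in red to the left and first-run libraries in grey to the right of each gene, circles for DEX and triangles for MOCK. Red points lie below grey ones for every morning gene and above them for 9 of the 10 others, CDF1 being the exception.

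The sequence before 5 of these genes is shown because it holds the letters of a known CCA1 and LHY binding site. The evening element, the letters AAAATATCT, is the site through which CCA1 and LHY repress evening genes. It was searched on both strands from 250 bases before to 50 after the start of each gene in the RefSeq annotation of TAIR10.1, after the values had been seen. It was present in 5 of 10 afternoon and evening genes and 1 of 8 morning genes (PRR9), against 2.82% of 27443 protein-coding genes. A match describes the letters and not a bound site. The stretches of 80 bases below are from TAIR10.1, run 5′ to 3′ on the strand of the gene and lie before its start, with the element or its reverse complement in capitals. FKF1 holds a second element at its start, which is not shown.
TOC1 (chr5:24674777-24674856, plus strand): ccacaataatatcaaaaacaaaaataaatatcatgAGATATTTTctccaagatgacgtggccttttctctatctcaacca
PRR5 (chr5:8358689-8358768, minus strand): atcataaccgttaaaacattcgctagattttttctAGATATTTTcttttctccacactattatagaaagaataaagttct
FKF1 (chr1:25508418-25508497, plus strand): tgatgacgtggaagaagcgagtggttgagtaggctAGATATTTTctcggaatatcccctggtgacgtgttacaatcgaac
LUX (chr3:17182954-17183033, plus strand): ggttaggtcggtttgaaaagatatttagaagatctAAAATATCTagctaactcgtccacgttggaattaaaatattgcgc
BOA (chr5:24003808-24003887, plus strand): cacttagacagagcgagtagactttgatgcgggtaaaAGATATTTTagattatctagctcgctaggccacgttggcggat

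Growth targets of the PIF factors, which act with the clock and with shade, showed no common direction, 3 of 10 being higher and 3 lower. Those shares, 30% each, were near the 29.4% and 27.5% of all tested genes. PIF4, the bHLH factor of hypocotyl growth, lay at 27.3 and 27.4 CPM in the second run, against 115, 84.0, 74.3 and 77.6 CPM in the first, a log2 fold change of −1.66 ± 0.16 (adjusted p = 8.09e-05). IAA19, an auxin-response repressor downstream of it, was higher by 0.69 ± 0.15 on the log2 scale.

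Heat shock genes were higher in 7 of 10 and lower in 1 (HSP18.2), with a median log2 fold change of 2.13. HSP101, the chaperone that dissolves protein aggregates, stood at 110.5 and 156 CPM in the second run, against 18.1, 19.4, 30.2 and 22.7 CPM in the first, a log2 fold change of 2.56 ± 0.12 (adjusted p = 1.84e-06). DREB2A, a factor of heat and drought responses, had 51.3 and 64.8 CPM in the second run, against 4.102, 3.81, 9.22 and 11.5 CPM in the first. HSP17.6II, a small heat shock protein, had 52.6 and 93.4 CPM in the second run, against 4.22, 6.24, 6.14 and 5.79 CPM in the first. HSP18.2, another small heat shock protein, was lower, at 1.59 and 2.09 CPM in the second run, against 2.06, 4.70, 4.11 and 4.79 CPM in the first, and overlapped between the runs. It lost its call without either second-run library or without first-run MOCK replicate 2. The letters GAANNTTC of the heat shock element, searched on both strands in the same windows after the values had been seen, were found for 5 of the 10 genes and for 11.6% of all protein-coding genes.

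Genes of the cold and drought regulon were higher in 8 of 13 and lower in 1, with a median log2 fold change of 1.15. COR15B, which protects chloroplast membranes in the cold, lay at 19.5 and 21.9 CPM in the second run, against 2.66, 2.86, 2.80 and 3.06 CPM in the first, a log2 fold change of 2.86 ± 0.12 (adjusted p = 1.2e-06). COR47, a dehydrin, had 257 and 400.1 CPM in the second run, against 128, 103, 136 and 151 CPM in the first. RD29A, which responds to the same factors, was lower, at 12.7 and 18.6 CPM in the second run, against 22.4, 20.22, 22.8 and 25.2 CPM in the first. Of the factors that switch the regulon on, CBF2 was higher, by 0.95 ± 0.27 on the log2 scale, and CBF1 and CBF3 did not pass. The count was 4 higher without second-run MOCK replicate 3, and RD29A lost its call without second-run DEX replicate 3. The letters GCCGAC of the C-repeat were found in the windows of 3 of the 13 genes and of 3.28% of all protein-coding genes. Low-oxygen genes were higher in 3 of 8 and lower in none, or in 1 without first-run DEX replicate 1 or MOCK replicate 2. The higher ones included ADH1, alcohol dehydrogenase, at 64.1 and 40.6 CPM in the second run, against 7.91, 9.85, 9.04 and 8.84 CPM in the first.

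Jasmonate genes were higher in 6 of 10 and lower in 1 (2 without first-run DEX replicate 2), with a median log2 fold change of 1.16. JAZ1, a repressor that jasmonate itself induces, stood at 312 and 318 CPM in the second run, against 15.1, 23.6, 22.0 and 34.1 CPM in the first, a log2 fold change of 3.76 ± 0.26 (adjusted p = 8.63e-05). OPR3, an enzyme of jasmonate synthesis, had 439 and 301 CPM in the second run, against 52.1, 68.9, 70.2 and 92.5 CPM in the first. LOX2, the chloroplast lipoxygenase at the start of the same route, was lower, at 84.3 and 89.9 CPM in the second run, against 351, 268, 542 and 808 CPM in the first, and varied widely among first-run libraries. The letters CACGTG of the G-box were in the window of 1 of the 10 genes (AOS), and of 7.68% of all protein-coding genes. The storage proteins VSP1 and VSP2 did not pass, with log2 fold changes of −0.98 ± 0.42 and −1.06 ± 0.61.

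Salicylic acid and immunity genes were higher in 4 of 12 and lower in 2, or 2 higher and 1 lower without second-run MOCK replicate 3, and 2 were higher with no treatment term. The shares over all libraries were 33.3% higher and 16.7% lower, against 29.4% and 27.5% of all tested genes, so the share higher was near the background. PR1 and PR2, the late defence markers, were the lower ones. PR2 lay at 0.470 and 0.316 CPM in the second run, against 6.83, 4.36, 9.75 and 3.37 CPM in the first, and PR1, which passed the filter on first-run levels alone, was nearly absent from the second run, at 0.0587 and 0 CPM, against 1.098, 2.62, 1.40 and 1.05 CPM in the first. EDS5, which exports salicylic acid precursor from the chloroplast, was higher, at 21.0 and 23.4 CPM in the second run, against 2.03, 2.70, 2.67 and 3.66 CPM in the first, a log2 fold change of 3.01 ± 0.17 (adjusted p = 4.67e-06). ICS1, the synthase upstream of it, did not pass, at a log2 fold change of 0.06 ± 0.14.

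Nutrient-state genes differed by nutrient. Nitrate-response genes were higher in 9 of 11 and lower in none, with a median log2 fold change of 0.67. LBD38, a repressor that nitrogen induces, stood at 107 and 99.2 CPM in the second run, against 34.3, 42.0, 40.4 and 38.3 CPM in the first, a log2 fold change of 1.41 ± 0.10 (adjusted p = 1.68e-05). Without second-run DEX replicate 3, 6 were higher. NIA1, a nitrate reductase, had 797 and 701 CPM in the second run, against 341, 307, 356 and 509 CPM in the first. Phosphate-starvation genes were lower in 4 of 8 and higher in none, with SPX1, a phosphate sensor, at 5.87 and 7.72 CPM in the second run, against 13.1, 14.5, 15.4 and 16.9 CPM in the first. Of 11 iron genes, 3 were higher and 1 lower in the second run, and none was lower without second-run MOCK replicate 3. The share of iron genes higher, 27.3%, was near the 29.4% of all tested genes, and the share lower, 9.09%, was below their 27.5%. FER1, a ferritin that stores iron, lay at 394 and 528 CPM in the second run, against 180.3, 167, 201 and 256 CPM in the first.

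Flavonoid genes moved in both directions, 4 of 13 being higher and 4 lower, shares near the background over all tested genes. CHS and CHI, the first enzymes of the pathway, were higher in the second run, by log2 fold changes of 0.62 ± 0.10 and 0.65 ± 0.12. DFR, LDOX, UF3GT and TT19, which act late and lead to anthocyanins, were lower, and TT19 stood at 1.03 and 2.56 CPM in the second run, against 3.90, 2.50, 6.50 and 8.01 CPM in the first, so the runs overlapped when treatments were pooled. MYB12, which activates flavonol genes, had 1.32 and 4.46 CPM in the second run, against 0.0687, 0.166, 0.137 and 0.158 CPM in the first, a log2 fold change of 4.27 ± 0.47 (adjusted p = 0.000138). MYB12 passed the filter on second-run levels alone, so it had to be higher there. With no treatment term 3 flavonoid genes were higher and none was lower, 1 was lower without second-run DEX replicate 3, and 2 without any 1 of the MOCK libraries. Among senescence and carbon-starvation genes 3 of 10 were higher and 2 lower (1 without second-run MOCK replicate 3), and ORE1, a NAC factor that drives leaf ageing, measured 16.9 and 19.4 CPM in the second run, against 0.961, 1.01, 3.39 and 1.92 CPM in the first. The senescence shares, 30% higher and 20% lower, were near the 29.4% and 27.5% of all tested genes. Of 8 seed storage and oil body genes only SESA1, an albumin, could be tested. It did not pass, at 0.0587 and 0.316 CPM in the second run and 0.0687, 0.0603, 0.0823 and 0.263 CPM in the first.

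Gene by gene, most of the 10 largest rises were of wall proteins and peroxidases outside the lists. AT1G26250, annotated as a proline-rich extensin-like protein, stood at 151 and 337 CPM in the second run and at 0 in all 4 first-run libraries, at least 22244-fold higher. It overlaps AT1G26255, which also ranked among the 10. The peroxidase AT3G01190 lay at 99.0 and 141 CPM in the second run and at 0 throughout the first, at least 10958-fold higher. DOX1, an alpha-dioxygenase of fatty acids, stood at 222 and 667 CPM in the second run, against 0, 0.0302, 0 and 0 CPM in the first, where it had 2 reads in all. The others of the 10 were BGLU21, the extensin-like AT1G23720 and AT3G28550, the glycine-rich AT2G05510, the peroxidase AT5G19890 and HRGP1. All 10 passed the filter on second-run levels alone, so they had to be higher there. Of 13 tested proline-rich extensin-like genes 10 passed the filter on second-run levels alone, and of the other 3, 1 was higher and none lower. Of 59 tested peroxidase superfamily genes 27 passed on second-run levels alone and 1 on first-run levels alone, and of the other 31, 21 were higher and 2 lower. These families were chosen after the values had been seen.

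The largest falls were of another kind. AT2G03130, AT4G25330, AT4G25930, AT1G30170 and AT2G35570 had no read in either second-run library, against levels up to 8.57 CPM in the first run. These genes passed the filter on first-run levels alone, so they had to be lower in the second run. In the first run AT2G03130 was at 1.58, 7.93, 8.57 and 6.80 CPM, lowest in DEX replicate 1, as were most of the 10. Of the 10 largest falls 5 were annotated with the DUF295 domain, a family of uncharacterised proteins. AT5G52930 lay at 0.411 and 0.823 CPM in the second run, against 19.1, 43.2, 41.3 and 40.1 CPM in the first. AT5G52940 lay at 0 and 0.0633 CPM in the second run, against 4.98, 17.7, 16.5 and 14.0 CPM in the first. AT5G52940 also passed the filter on first-run levels alone. Of 27 tested genes of the family, 3 passed on first-run levels alone and 1 on second-run levels alone, and of the other 23, 10 were lower and none higher. The family was chosen after its values had been seen. Among genes with the smallest adjusted p, BR6OX2, the last enzyme of brassinosteroid synthesis, was lower at 5.17 and 7.98 CPM in the second run, against 28.5, 29.9, 48.4 and 51.2 CPM in the first, a log2 fold change of −2.57 ± 0.11 (adjusted p = 1.4e-06). PAO1, a polyamine oxidase, was higher at 67.5 and 68.0 CPM in the second run, against 3.79, 3.92, 4.80 and 4.42 CPM in the first, a log2 fold change of 4.01 ± 0.10 (adjusted p = 3.49e-07). Further genes given in the text that overlap other loci of the count files are PAO1, AT1G30170, AT2G35570, APR1, PLT3, F6'H1, CESA4, XCP1, RCA, NOK, SPL3, SPL4, SPL5, SPL9, SPL15, CDKB1;1, CDKB2;1, KN, CBF3, NUC1, FKF1, ELF3, LUX, BOA, HSP101, DREB2A, COR15B, ADH1, EDS5, FER1, CHS and TT19.

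TCP5, the gene carried by the transgene, was itself higher in the second run, at 956 and 1157 CPM, against 234, 263, 324 and 297 CPM in the first, a log2 fold change of 1.92 ± 0.11 (adjusted p = 4.56e-06). Both second-run libraries lay above all first-run libraries. The counts do not separate transgene from native transcripts, and the labels do not say whether one line was used on both occasions.

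The difference between the runs could be taken within each treatment, with 1 second-run library set against 2 of the first run. The test of whether the run difference itself differed between DEX and MOCK called 0 genes (edgeR quasi-likelihood, 0.0% of 23181), with 1488 at an unadjusted p under 0.05, and DESeq2 called 45. The smallest edgeR adjusted p was 0.687, for the 5 genes with the smallest p. One of them was GH3.3, an enzyme that conjugates auxin, at 89.5 and 19.5 CPM in the second run and 87.4, 90.09, 47.4 and 55.2 CPM in the first. The others were APR1, a reductase of sulfate assimilation, FMO GS-OX1, an enzyme of glucosinolate synthesis, AT1G66190 and AT1G20380. For root specialised metabolism the median log2 difference was 4.599 with DEX and 6.76 with MOCK, and for root hairs 5.82 with DEX and 7.03 with MOCK. For root tip and root cap genes it was 4.096 with DEX and 3.66 with MOCK. These medians cover all tested members of each list and were not tested.

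**Figure D5:**
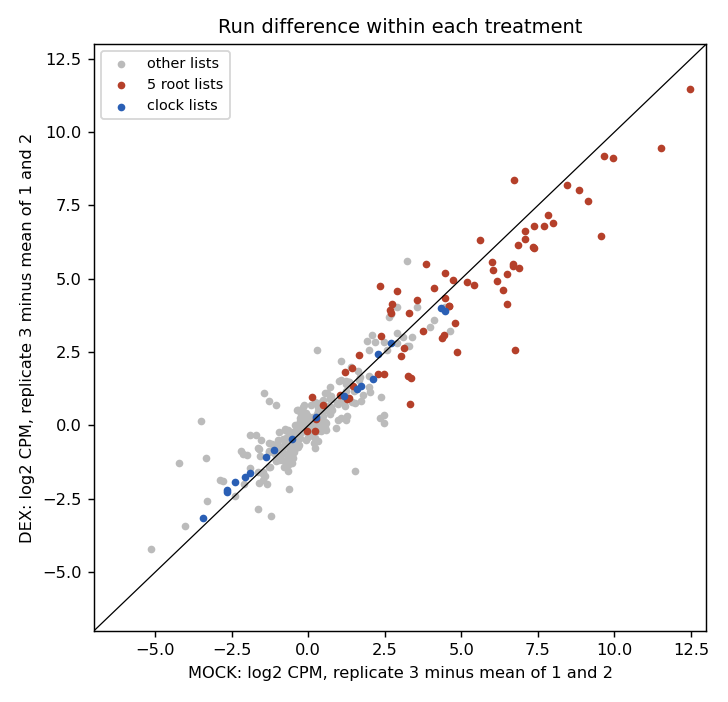
Each point is 1 tested listed gene, with the log2 CPM of replicate 3 minus the mean of replicates 1 and 2 in the DEX libraries on the y axis and the same in the MOCK libraries on the x axis, after a prior count of 2. Of the root genes (red), 14 of 16 root hair, 10 of 14 endodermis and 9 of 11 specialised metabolism genes lie to the right of the diagonal. So do 12 of 19 nutrient uptake and 5 of 10 root tip genes. Over all tested genes, most of them not drawn, 10601 of 23181 would lie there. Of the clock genes (blue), 0 of 8 morning and 6 of 10 afternoon and evening genes lie to the right.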

How the data were processed

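Gene counts in exons and introns were deposited by the authors for each library as raw whole-number counts with no normalization, per the file headers, beside a gene length that the authors listed in bases and that was used here only as a description. Reads came from unstranded libraries; the submitters' processing notes list STAR and DESeq2 without saying which step each did. Neither the counting program nor the genome build or gene models behind the counts were given in the sources used here. Of 38194 loci listed, 37898 matched the RefSeq annotation of TAIR10.1 by locus tag, which supplied names, products, overlaps and all printed coordinates and sequences.

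The run contrast was fitted to exon counts in edgeR 4.0.16 under R 4.3.3 (quasi-likelihood, robust, TMM scaling, terms for treatment and run, 3 residual degrees of freedom) after edgeR's expression filter by run, set to 10 counts in enough libraries and 15 in all, with Benjamini-Hochberg adjustment over 23181 genes at 0.05. Levels are CPM on TMM-scaled totals. The interaction fit had 2 residual degrees of freedom, and differences within a treatment used a prior count of 2. DESeq2 1.42.0, limma 3.58.1 and Python 3.11.15 served the alternatives, tables and figures. Floors are 3 counts over a group, and intervals are exact at 95%; both cover counting error only. In counts simulated for the same 23181 genes, 67 genes were changed 1.5-fold, 67 2-fold and 66 4-fold between the runs. Counts were drawn independently at the trended dispersion. The fit recovered 28.4%, 79.1% and 83.3% of these changes in turn, and 4.51% of its calls were false. In the data 13190 genes were called and counts are not independent fragments, so these shares do not carry over to the calls above.

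Members and lists were chosen with earlier results of these data known. Genes were named as the 10 largest changes each way averaging 1 CPM or more and not overlapping between runs, the 5 smallest adjusted p each way, up to 4 called members with the smallest adjusted p of each list (or the highest-level tested member where none passed), TCP5, and the 5 smallest interaction p. Other list members, the motifs and the protein families were picked after their values were seen. The closest pair of libraries differed by a chi-square per degree of freedom of 27.35 over genes, so none was counted as a repeat deposit. Deviations from the treatment means correlated between same-numbered DEX and MOCK libraries at 0.718, 0.706 and 0.914 for numbers 1, 2 and 3. Those means include replicate 3, which is the second run itself. The run difference therefore enters all 3 correlations, and they cannot show a pairing. Replicate 1 minus replicate 2 of the first run correlated at −0.12 between treatments. The replicate number served as a block in an alternative fit only. Alternatives covered scaling, filters, tools, terms, the replicate block, thinning, organelle loci, intron counts and leaving out each library.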

Additional observations from a re-analysis of the deposited data

Results flagged for a closer look

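Of 37 values examined over the 4 first-run libraries, 1 had a library far from the others: the summed level of the seed storage and oil body list was 3.136 CPM in first-run DEX replicate 2. The sums were 0.118 CPM with DEX and 0.570 CPM with MOCK in the second run, and 0.189, 0.165 and 0.289 CPM in the other first-run libraries. OLEO1 and OLEO2, oil body coat proteins, made up most of it, at 1.21 and 1.03 CPM in that library. Chance flags about 1 in 20 groups. Treating the 4 first-run libraries as 1 group was decided after the values had been seen.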

How the results depend on the processing

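Across 18 alternatives, no gene called in both fits changed direction except 34 with intron counts. The second run was higher for 5016 to 6955 genes and lower for 4185 to 6506 with each library left out in turn, the lowest counts being those without second-run MOCK replicate 3. Root-list members higher ranged from 56 to 65 under the same. With the replicate block, 12146 genes were called (6433 higher, 5713 lower), and with intron counts 1850 were higher and 1488 lower of 14094 tested, root-list members higher being 14. The interaction called 45 genes with DESeq2. Library totals without scaling put the median over tested genes at −0.12 on the log2 scale, and other scalings between −0.08 and 0.01. In the exon alternatives no list's majority turned to the other direction, but the phloem, xylem, shoot epidermis, meristem, flower organ, S phase, senescence and salicylic acid lists each came to equal counts in at least 1. All 8 morning clock genes were lower and 8 or 9 evening genes higher throughout. Root tip and root cap genes higher numbered 2 with a mean of at least 1 CPM, on plain library totals, required.

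Of 2672 values of 152 named genes, 2515 kept direction and call, 136 lost the call, 3 gained it and 18 reversed; the cause was not tested. As log2 fold changes between the runs, AT1G66190 reversed with limma-voom (−0.10), no treatment term (−0.031), and without first-run MOCK replicate 1 (−0.05) or 2 (−0.015) or second-run MOCK replicate 3, its range with single libraries left out being −0.89 to 1.03. That range was −0.13 to 0.87 for SESA1, −1.39 to 0.011 for GH3.3 and −0.70 to 0.42 for FMO GS-OX1, all reversed without second-run MOCK replicate 3. With intron counts SPL15 was 0.078, SPL3 0.68, PAO 0.22, MCM3 0.54, PCNA1 −0.27, KN 0.20, COR47 −0.12, ERD10 −0.053, PCO1 −0.045 and FIB2 −0.0885. A count of 0 allows up to 0.0457 CPM over the second run and 0.0110 CPM over the first. Each treatment has 1 second-run library, so the run difference within a treatment has no replicate check.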
